A study of Mus musculus with 4 samples.

Results

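The cells described here are the MPP4 gate cells of a CITE-seq study of mouse haematopoietic stem and progenitor cells: barcodes that carried little antibody signal for CD150 and much for CD135. CITE-seq counts surface antibodies by their DNA tags together with the RNA of the same cell. For each barcode, the 6 antibody counts were turned into centred log-ratios (clr), the natural log of 1 + count minus its mean over the 6 antibodies, and the gate took cells with a CD150 clr of at most -0.28 and a CD135 clr above -0.94. The members were thus chosen by their antibody counts. They were 2141 of 18168 cells kept (1000 genes or more, with no more than 10% of the UMIs, unique molecular identifiers that mark single captured transcripts, from mitochondrial genes) in the control, Mll3 deleted and Mll4 deleted libraries. Across all 4 libraries of the series, 27080 barcodes were deposited and 22916 passed those limits.

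The study profiled CD45.2+ lineage-negative, Sca1+, Kit+ (LSK) bone marrow cells 10 weeks after transplantation, from marrow that was control, deleted for Mll3 (gene symbol Kmt2c), deleted for Mll4 (Kmt2d), or deleted for both. The double-deleted library was not used here. Each of the 3 groups is 1 library, and the deleted allele, the Cre driver, the strain and the number of mice behind a library are not given in the sources used here. Transplantation is common to all groups, so none of them shows marrow at steady state.

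MPP4 cells, also called lymphoid-primed multipotent progenitors, are the lymphoid-biased branch of the multipotent progenitors that arise from haematopoietic stem cells. They are recognised by CD135, the receptor tyrosine kinase encoded by Flt3, and start to express genes of early lymphocytes such as Dntt, which encodes the DNA polymerase that adds nucleotides at immunoglobulin and T-cell receptor junctions, while they can still form granulocytes and monocytes. Satb1 encodes a chromatin organiser that favours the lymphoid path. MLL3 and MLL4 are related histone methyltransferases that mark enhancers and act within COMPASS-type complexes.

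Flt3, Satb1 and Dntt carry the identity of the gate, and their promoters are printed because the results turn on them. Flt3 (ENSMUSG00000042817, GRCm38 chr5:147330741-147400489, minus strand), Satb1 (ENSMUSG00000023927, chr17:51736187-51833290, minus strand) and Dntt (ENSMUSG00000025014, chr19:41029275-41059525, plus strand) are shown by the 250 bases before the annotated start, 5′ to 3′ on the gene's strand, from RefSeq on GRCm38.p6. Capitals mark the ETS core GGAA on either strand and the E-box CANNTG, which is its own reverse complement. No matches overlap. The RUNX motif TGTGGT was searched on both strands too, and its letters are not in these 3 windows.
Flt3, chr5:147400490-147400739: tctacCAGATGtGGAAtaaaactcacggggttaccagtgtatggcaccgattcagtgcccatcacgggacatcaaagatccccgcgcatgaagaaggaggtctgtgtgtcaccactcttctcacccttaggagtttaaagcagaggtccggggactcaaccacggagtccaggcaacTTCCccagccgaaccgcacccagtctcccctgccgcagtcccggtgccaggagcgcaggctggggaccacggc
Satb1, chr17:51833291-51833540: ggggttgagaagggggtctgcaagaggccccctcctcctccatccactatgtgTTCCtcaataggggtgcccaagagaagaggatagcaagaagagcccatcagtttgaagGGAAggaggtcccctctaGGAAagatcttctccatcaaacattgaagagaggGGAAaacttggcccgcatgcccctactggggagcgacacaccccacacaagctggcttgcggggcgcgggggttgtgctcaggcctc
Dntt, chr19:41029025-41029274: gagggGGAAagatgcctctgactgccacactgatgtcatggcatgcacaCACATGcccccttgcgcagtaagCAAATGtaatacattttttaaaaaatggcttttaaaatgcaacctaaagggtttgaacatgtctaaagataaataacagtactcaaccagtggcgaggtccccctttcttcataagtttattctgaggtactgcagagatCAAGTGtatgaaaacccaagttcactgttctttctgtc
The Flt3 window held 3 matches and the Satb1 and Dntt windows held 4 each. Such matches are common: of 27025 promoter windows of the same length, 93.4% held the ETS core, 66.0% the E-box and 14.2% the RUNX motif.

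In the control library 866 of 7274 kept cells lay in the gate, a share of 11.9% (95% exact binomial interval 11.2 to 12.7%). In the Mll3 deleted library 639 of 6101 did, 10.5% (9.72 to 11.3%), and in the Mll4 deleted library 636 of 4793 did, 13.3% (12.3 to 14.3%). The shares follow from the antibody thresholds and carry no test, and their order changes with the threshold: with CD135 above -0.69 they were 5.80%, 6.08% and 4.95%. Intervals here and below cover counting error only. The plot of the antibody values shows that the CD135 threshold cuts through a continuous cloud, whereas few cells lie near the CD150 threshold.

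**Figure D1:**
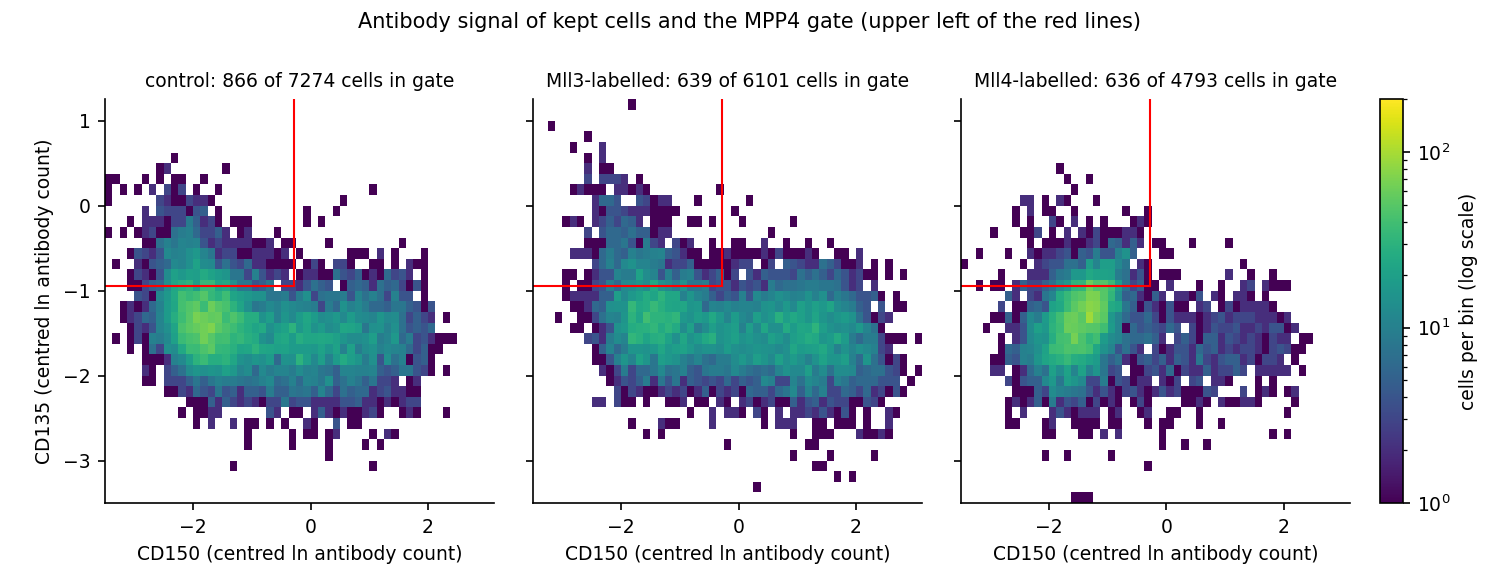
CD150 clr (x axis) against CD135 clr (y axis) for the kept cells of the control, Mll3 deleted and Mll4 deleted libraries, with colour for cells per bin on a log scale. The MPP4 gate is the upper left corner bounded by the red lines at -0.28 and -0.94, and the cloud of cells continues below the CD135 line in each library.

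Gate members had a median of 14765, 15168 and 14896 UMIs per cell in the control, Mll3 deleted and Mll4 deleted libraries (this order is kept throughout), and 14441401, 10522022 and 11117604 UMIs in all. Median genes per cell were 3796.5, 3942 and 3263.5. The median CD135 antibody count was 38, 57 and 42, against 19, 25 and 18 in the MPP3 gate (CD150-CD48+CD135-). The gate sets no limit on CD48, the marker that separates later multipotent progenitors from stem cells, and 83.8%, 69.8% and 78.1% of members were CD48-high by the threshold that splits CD48 in the other gates. The median count of CD117, the Kit receptor on which the cells were sorted, was 118.5, 154 and 126, below the 223, 357.5 and 157 of the MPP3 gate. Between pairs of libraries 14, 12 and 7 kept barcodes were shared, and 0 of them were members in both libraries of a pair.

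The targeted genes gave only a partial check of the labels. Kmt2c (ENSMUSG00000038056, chr5:25271798-25498783) stood at 61.7 CPM (of the UMIs summed over gate cells; Poisson 95% interval 57.7 to 65.9), 33.5 (30.1 to 37.1) and 64.6 (59.9 to 69.5) CPM, lowest in the library labelled Mll3 deleted. Kmt2d (ENSMUSG00000048154, chr15:98831669-98871204) stood at 26.2 (23.7 to 29.0), 22.1 (19.3 to 25.1) and 23.8 (21.0 to 26.8) CPM. The intervals of the control library and the library labelled Mll4 deleted overlap. The 3′ tags may lie outside the deleted part of either gene, so these counts do not check the Mll4 label.

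Flt3 RNA stood at 174 (167 to 181), 195 (187 to 204) and 89.5 (84.0 to 95.2) CPM in the gate. It was lower in every other gate shown: 68.6, 65.5 and 27.0 CPM in MPP3, 44.0, 51.2 and 54.2 in MPP1 (CD150-CD48-CD135-), and 9.36, 8.86 and 7.43 in the HSC gate (CD150+CD48-CD135-). Because the antibody against the Flt3 protein chose the members, these levels check the gate and are no finding. Slamf1, which encodes CD150, stood at 0.55, 0.76 and 1.26 CPM in the gate and 28.9, 27.0 and 35.5 CPM in the HSC gate, likewise a description.

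Satb1 was also highest in the MPP4 gate of each library. Its level was 149, 186 and 43.4 CPM in the gate, 47.2, 78.5 and 32.1 in MPP3, 13.9, 26.7 and 9.03 in MPP1, and 3.60, 4.99 and 3.50 in HSC. The control and Mll3 deleted members do not overlap with any other gate shown, whereas the Mll4 deleted members lie below the MPP3 cells of both other libraries. Dntt had a steeper profile: 565, 944 and 150 CPM in the gate, 69.2, 281 and 37.3 in MPP3, 2.72, 7.59 and 21.5 in MPP1, and 1.80, 3.87 and 0.66 in HSC. The Mll4 deleted members were again the lowest of the 3 libraries. Notch1, the receptor that starts T-cell fate, stood at 59.7, 82.0 and 23.3 CPM in the gate, and 20.6, 32.9 and 13.1 CPM in MPP3. In sums over cells, fewer cells of a type and less RNA per cell cannot be told apart.

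**Figure D2:**
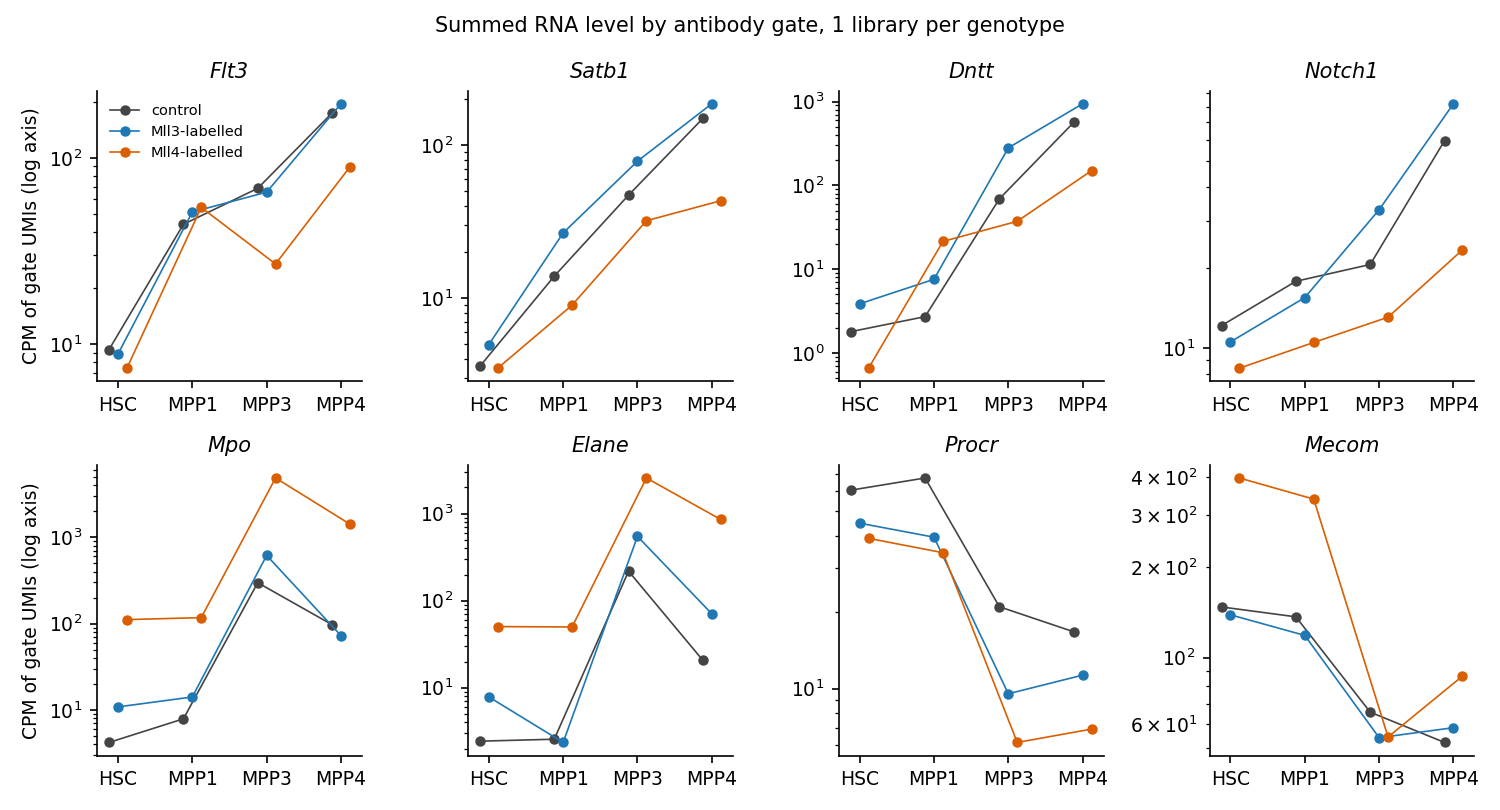
CPM on a log axis for 8 genes in the HSC, MPP1, MPP3 and MPP4 gates, 1 point per library (control, Mll3 deleted, Mll4 deleted). Flt3, Satb1, Dntt and Notch1 reach their highest level in the MPP4 gate in each library, while Mpo and Elane peak in the MPP3 gate and stand far higher in the Mll4 deleted library.

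Shares of cells with at least 1 UMI were compared after thinning each cell to 3000 UMIs, which left out 5, 1 and 33 members. Flt3 was seen in 37.1%, 41.7% and 15.9% of thinned members, against 80.8%, 80.0% and 30.3% before thinning. In kept cells rich in mature B and plasma transcripts, which should lack Flt3, the thinned share was 5.88%, 3.12% and 1.49% (34, 32 and 134 such cells, median 21114, 26564 and 24359 UMIs before thinning). Satb1 was seen in 33.7%, 36.4% and 9.12% of thinned members (68.5%, 72.6% and 32.5% unthinned), and in 0%, 0% and 1.49% of those B and plasma cells. Dntt was seen in 42.7%, 47.3% and 10.1% (62.2%, 59.6% and 15.2% unthinned), against 2.94%, 9.38% and 0%. All 3 genes thus stood above this free-RNA reference in each library. The reference may understate free RNA, since part of those cells' 3000 UMIs falls on the B and plasma transcripts that define them. In the Mll4 deleted library a minority of members carried any of the 3 genes at this depth.

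The label MPP4 was checked against Flt3 and Satb1 on this basis. Both genes were higher in the gate than in the MPP3, MPP1 and HSC gates of the same library, and in the control and Mll3 deleted libraries most members had a UMI of each before thinning. In the Mll4 deleted library 65.9% of members were rich in transcripts of other cell types (described further on) and 30.3% had a Flt3 UMI. The data therefore go against the label for most members of that library, and its members are called gate cells.

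Within the gate, RNA followed the antibody. Members of each library were put in 4 groups of equal size by CD135 clr. From the lowest to the highest group, Flt3 ran 128, 132, 190 and 247 CPM in the control library and 130, 170, 203 and 282 CPM in the Mll3 deleted library. Satb1 ran 110, 109, 171 and 207 CPM in control members and 121, 138, 213 and 277 CPM in Mll3 deleted members. Dntt went from 295 to 896 CPM and from 525 to 1540 CPM between the lowest and highest group, about 3 times higher in both libraries. Procr, which encodes the stem-cell surface receptor CD201, went the other way, from 24.5 to 8.16 CPM and from 16.6 to 4.36 CPM. Between the same groups the median CD48 clr rose from 2.56 to 3.04 in control and from 2.02 to 2.72 in Mll3 deleted members. It fell from 2.91 to 2.42 in Mll4 deleted members. The parts of CD135 and CD48 in these values were not tested apart. In the Mll4 deleted library Flt3 stood at 53.0, 71.2, 60.7 and 158 CPM and Satb1 at 37.6, 36.7, 35.1 and 60.2 CPM, so that only the highest group stood apart.

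Cells within 0.1 clr of the CD135 threshold differed less between its sides in Flt3 and Satb1 than in Dntt and Mpo. In the control library the 214 cells inside had 128 CPM of Flt3, 110 of Satb1 and 282 of Dntt, and the 281 cells outside had 112, 80.9 and 180 CPM. In the Mll3 deleted library the values were 123, 110 and 521 CPM inside (110 cells) and 109, 93.0 and 420 CPM outside (202 cells). Mpo stood at 118 inside against 191 CPM outside in the control library and at 148 against 294 CPM in the Mll3 deleted library. In the Mll4 deleted library the first 3 genes were at 57.3, 35.1 and 91.4 CPM inside (226 cells) and 60.0, 32.2 and 145 CPM outside (287 cells). Mpo ran the other way there, at 1953 CPM inside and 1628 CPM outside. Near the CD150 threshold lay 2, 9 and 5 cells inside and 2, 3 and 1 outside.

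CD48, which the gate did not limit, went with large differences among the members. In the control library the 726 CD48-high members had 627 CPM of Dntt and 162 CPM of Satb1, and the 140 CD48-low members had 35.1 and 38.4 CPM. Stem-cell genes went the other way: Hlf, a stem-cell transcription factor, stood at 176 against 598 CPM, Procr at 11.4 against 62.3 CPM and Mecom, a transcription factor needed for stem-cell maintenance, at 42.9 against 130 CPM. Flt3 differed less, 180 against 121 CPM. Whether Flt3 and the stem-cell genes are in the same CD48-low cells was not tested.

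The same split held in the Mll3 deleted library, with Dntt at 1218 against 72.4 CPM, Procr at 2.50 against 39.4 CPM and Flt3 at 209 against 151 CPM (446 CD48-high and 193 CD48-low members). In the Mll4 deleted library Dntt stood at 185 against 46.2 CPM and Mecom at 33.7 against 246 CPM (497 and 139 members). Granule genes did not follow the CD48 split there, with Mpo at 1458 against 1320 CPM and Elane at 741 against 1210 CPM. CD48-low control members were shallower, with a median of 9909 UMIs against 16379, and the part of depth in these values was not tested, although CPM is relative to each sum.

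Lymphoid and myeloid transcripts were seen together in some members. Whether this was more often than their separate shares give was not tested. With each cell thinned to 3000 UMIs, both Dntt and Mpo, the myeloperoxidase of granulocyte and monocyte precursors, were seen in 7.55% of control members (exact interval 5.87 to 9.52%), 5.02% of Mll3 deleted members (3.46 to 7.01%) and 3.48% of Mll4 deleted members (2.17 to 5.27%). Without the marker-rich members described below the shares were 7.97%, 5.21% and 8.45% (the last 5.09 to 13.0%), so the Mll4 deleted library was no longer the lowest. Dntt alone was seen in 35.2%, 42.3% and 6.63%, and Mpo alone in 7.20%, 5.49% and 44.9%. In the MPP3 gate 2.10%, 1.98% and 1.86% of cells had both. For Mpo the B and plasma cells gave 2.94%, 0% and 29.1%, against 48.4% of Mll4 deleted members with Mpo. These reference shares may understate free RNA. How much of the Mll4 deleted shares with Mpo, alone or with Dntt, is free RNA was not tested.

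Some members carried transcripts of cell types that a lineage-negative, Sca1+, Kit+ sort is meant to remove. A member was called marker-rich when at least 0.2% of its UMIs fell on a list of mast and basophil, monocyte and macrophage, T and innate lymphoid, mature B and plasma, stroma and endothelium, dendritic core or B lineage markers, or at least 1% on the dendritic and MHC class II list. These limits were chosen after the values were seen. They took 58 of 866 control members (6.70%, exact interval 5.13 to 8.57%), 120 of 639 Mll3 deleted members (18.8%, 15.8 to 22.0%) and 419 of 636 Mll4 deleted members (65.9%, 62.1 to 69.6%). Outside the gate the shares were 1.55%, 5.02% and 41.9%, so marker-rich cells were more common inside the gate in each library.

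The lists differed between libraries. Members rich in B lineage markers, such as the pre-B-cell receptor gene Vpreb1 and the signalling subunit Cd79a, made up 2.08%, 13.0% and 3.62% of the gate (18, 83 and 23 cells). Those rich in monocyte and macrophage markers made up 0.924%, 0.626% and 31.8%, and those rich in mast and basophil markers were 2, 0 and 78 cells. Members with at least 1% of UMIs on dendritic and MHC class II genes made up 2.89%, 4.85% and 27.4%. Mature B and plasma markers were rich in 1.39%, 1.72% and 10.5% of members, T and innate lymphoid markers in 6, 5 and 23 cells, and stroma and endothelium markers in 3, 2 and 32 cells.

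Summed over the gate, the 13 monocyte and macrophage markers stood at 61.1, 73.1 and 1969 CPM and the 10 mast and basophil markers at 21.5, 4.09 and 1473 CPM. The mast proteases Tpsb2 and Tpsab1 were at 0 UMIs in control members, while in Mll4 deleted members only Tpsab1 of that list was at 0. The 12 B lineage markers summed to 199, 1196 and 352 CPM, with none at 0. In the Mll4 deleted library marker-rich members had a median of 9947 UMIs and the remaining members 25058. Marker-rich members of that library had 13.4 CPM of Dntt and 58.6 CPM of Flt3.

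**Figure D3:**
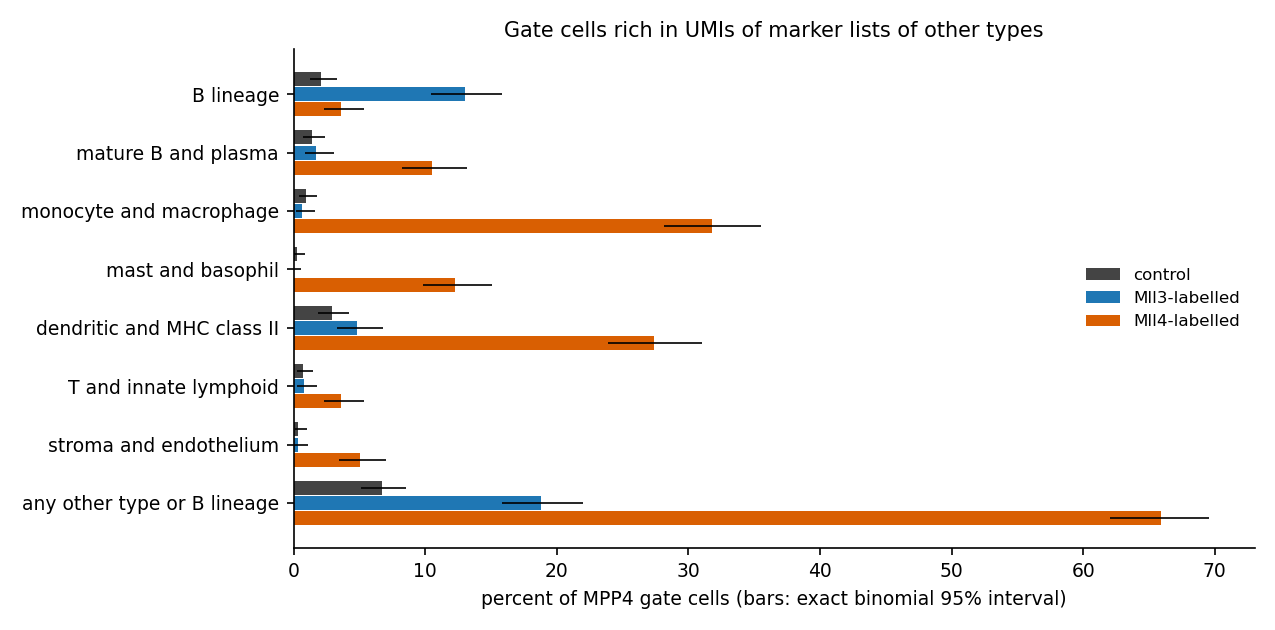
Percent of MPP4 gate cells (x axis) whose UMIs are rich in each marker list (y axis), by library. Error bars are exact binomial 95% intervals. Monocyte and macrophage (31.8%), dendritic and MHC class II (27.4%) and mast and basophil (12.3%) markers stand out in the Mll4 deleted library, and B lineage markers (13.0%) in the Mll3 deleted library.

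Against the MPP3 gate, the nearest large gate and the one from which CD135 alone divides most members, lymphoid genes were higher and granule genes lower in the MPP4 gate. The edgeR quasi-likelihood fit on 15 sums (5 gates in each of 3 libraries, with library as a block) called 223 of 13615 genes higher, 1.64% of those tested, and 137 lower, 1.01%, at an adjusted p under 0.05. Of the 16 lymphoid priming genes 8 were called higher and 0 lower, with a median log2 difference of 1.16, against -0.02 over all genes tested. Flt3 is among the 8 (log2 difference 1.53 ± 0.24 SE) and is fixed by the gate. The libraries have 3 genotypes, so a gate difference that depends on genotype counts as spread in this fit.

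Among the lymphoid genes other than Flt3, edgeR gave Notch1 a log2 difference of 1.26 ± 0.23 (SE; adjusted p = 0.0207) and Satb1 1.15 ± 0.22 (adjusted p = 0.0259), each higher in 3 of 3 libraries. Rag1, a subunit of the recombinase of antigen receptor genes, stood at 4.43, 35.7 and 2.16 CPM against 0.39, 8.93 and 0.51 in MPP3 and rose by 2.49 (edgeR adjusted p = 0.0435). Ccr9, the homing receptor for the thymus, rose by 2.38 (edgeR adjusted p = 0.0155). The lymphoid transcription factors Ikzf1 and Mef2c rose by 0.58 and 0.81 (edgeR adjusted p = 0.0197 and 0.0335), and Lsp1, an actin-binding protein of leukocytes, by 1.17 (edgeR adjusted p = 0.0182). Ikzf1 stood at 146, 166 and 127 CPM against 99.0, 96.8 and 97.2 CPM, without overlap. Dntt, despite its size, missed the threshold over the 3 libraries (log2 difference 2.34 ± 0.82, edgeR adjusted p = 0.141) and passed it without the Mll4 deleted library (edgeR adjusted p = 0.00478). Il7r, the interleukin-7 receptor chain that early lymphocytes need, was not called either, with 18.3, 62.2 and 55.6 CPM against 5.41, 26.2 and 64.0 CPM (edgeR adjusted p = 0.215), and it was below MPP3 in the Mll4 deleted library.

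Of the 16 granulocyte-monocyte genes 3 were called lower and 0 higher (median log2 difference -0.58). These were the neutrophil serine protease Elane (log2 difference -2.54 ± 0.49, edgeR adjusted p = 0.0259), the early granulocyte-monocyte gene Ms4a3 (-2.27 ± 0.41, adjusted p = 0.0217) and Mpo (-2.03 ± 0.38, adjusted p = 0.0231). Mpo stood at 97.2, 72.5 and 1424 CPM against 298, 618 and 4887 CPM in MPP3, lower in each library although the Mll4 deleted members exceed the MPP3 cells of both other libraries. The granule protease Ctsg showed 101, 66.5 and 717 CPM against 267, 567 and 2339 CPM and just missed the threshold (edgeR adjusted p = 0.0508). Irf8, a transcription factor of monocytes and dendritic cells, went the other way with 73.3, 116 and 142 CPM against 23.6, 63.4 and 124 CPM, not called (edgeR adjusted p = 0.239).

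Of 16 megakaryocyte-erythroid genes 3 were called lower and 0 higher (median log2 difference -1.22): the transcription factors Gata1 (-2.85 ± 0.57, edgeR adjusted p = 0.0288) and Gata2 (-1.09 ± 0.22, adjusted p = 0.0285), and Epor, the erythropoietin receptor (-1.80, adjusted p = 0.0358). Gata2 stood at 22.5, 25.4 and 42.9 CPM against 62.8, 56.0 and 73.3 CPM. Of 16 stem-cell genes edgeR called 0 (2 at an unadjusted p under 0.05; DESeq2 called 1), and 1 higher and 5 lower without the Mll4 deleted library. Without the Mll4 deleted library 583 of all 13516 genes were called higher and 338 lower. Procr, Mecom and Hlf had log2 differences of 0.00, 0.07 and 0.11 over the 3 libraries. Of the 12 dendritic and MHC class II genes tested, 5 were called higher and 0 lower. They were the dendritic-cell genes Cox6a2 (2.92), Xcr1 (2.47), Clec9a (1.92), Batf3 (1.45) and Tcf4 (0.74), with edgeR adjusted p from 0.0155 to 0.0369. Tcf4, the regulator of plasmacytoid dendritic cells, was evenly raised, with 206, 213 and 206 CPM against 129, 126 and 116 CPM. Without cells rich in other types 5 of 8 genes tested were called higher. They were Tcf4 (0.77) and Cox6a2 (3.16) again, with the MHC class II genes Cd74 (1.73), H2-Aa (1.18) and H2-Eb1 (1.26). Xcr1, Clec9a and Batf3 no longer passed the filter on low counts. The cut uses the dendritic and MHC class II list itself, so lower levels of its genes were partly fixed by it.

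Other lists had few or no calls against MPP3. Of 12 B lineage genes only Ebf1, the transcription factor that starts the B-cell programme, was called (1.37 ± 0.25, edgeR adjusted p = 0.0208), and without cells rich in other types it was not (adjusted p = 0.0519). Of 16 interferon response genes Rtp4 alone was called (0.69), with 11 higher at an unadjusted p under 0.05. The stroma and endothelium list had 5 of 7 called higher, and 0 of 5 tested once cells rich in other types were left out. That cut uses this list itself, so the loss of calls was partly fixed by it. Cxcl12, a niche chemokine on that list, stood at 20.2, 0.285 and 174 CPM, and 1 control member held 206 of the 292 control UMIs. The mature B and plasma list had 2 of 7 called higher, Sdc1 and Ighd. For the mast, monocyte, T-cell, lineage-choice transcription factor, S phase, G2M phase and immediate early lists edgeR called 0 genes, with 2, 3, 7, 4, 1, 7 and 5 at an unadjusted p under 0.05, and DESeq2 called 1, 0, 2, 1, 0, 2 and 2. Over all 13615 genes edgeR had 2786 at an unadjusted p under 0.05, and DESeq2 called 865. Without the Mll4 deleted library edgeR called 2 mast genes and 4 T-cell genes lower and 5 of 10 immediate early genes higher. It also called 2 transcription factors higher and 1 lower, beside 583 higher and 338 lower of all 13516 genes. Without cells rich in other types edgeR called 1 mast gene, 1 T-cell gene and 2 G2M genes lower and 3 immediate early genes higher. Of all 13397 genes in that fit, 372 were called higher and 115 lower.

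Beyond the lists, the genes with the largest calls against MPP3 and at least 50 CPM included Plbd1, a phospholipase B-like gene of myeloid cells (1.98 ± 0.30), Mpeg1, a pore-forming protein of macrophages and dendritic cells (1.60 ± 0.32), Smad7, an inhibitor of TGF-beta signalling (1.43 ± 0.33), and Ncf1, a subunit of the phagocyte NADPH oxidase (1.35 ± 0.22), with edgeR adjusted p of 0.0144, 0.0292, 0.0493 and 0.0155. Smad7 stood at 85.6, 115 and 44.4 CPM against 35.5, 36.8 and 18.1 CPM, higher in each library by about the same factor. Smaller rises were called for Ier5 (1.02), Ctr9 (0.89), Ppp1r18 (0.81) and Cd2ap (0.78). On the low side beside Elane, Ms4a3, Mpo and Gata2 stood Sdsl (-1.33 ± 0.22, edgeR adjusted p = 0.0155), with 28.9, 23.5 and 7.65 CPM against 84.6, 63.6 and 14.3 CPM. Il11ra1, the interleukin-11 receptor chain, fell by 0.72, the fucosyltransferase gene Fut8 by 0.71, and Rab38, Frat2 and Etfb by 0.69, 0.67 and 0.66. Rab38 and Etfb were not called once cells rich in other types were left out (edgeR adjusted p = 0.0686 and 0.059).

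The calls against MPP3 rest on the control and Mll3 deleted libraries. Without the control library edgeR called 0 genes (1829 at an unadjusted p under 0.05), without the Mll3 deleted library 2, and without the Mll4 deleted library 921, of which 266 were also called with all 3. Upper-quartile scaling moved the split from 61.9% to 75.7% of calls higher (237 higher and 76 lower).

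**Figure D4:**
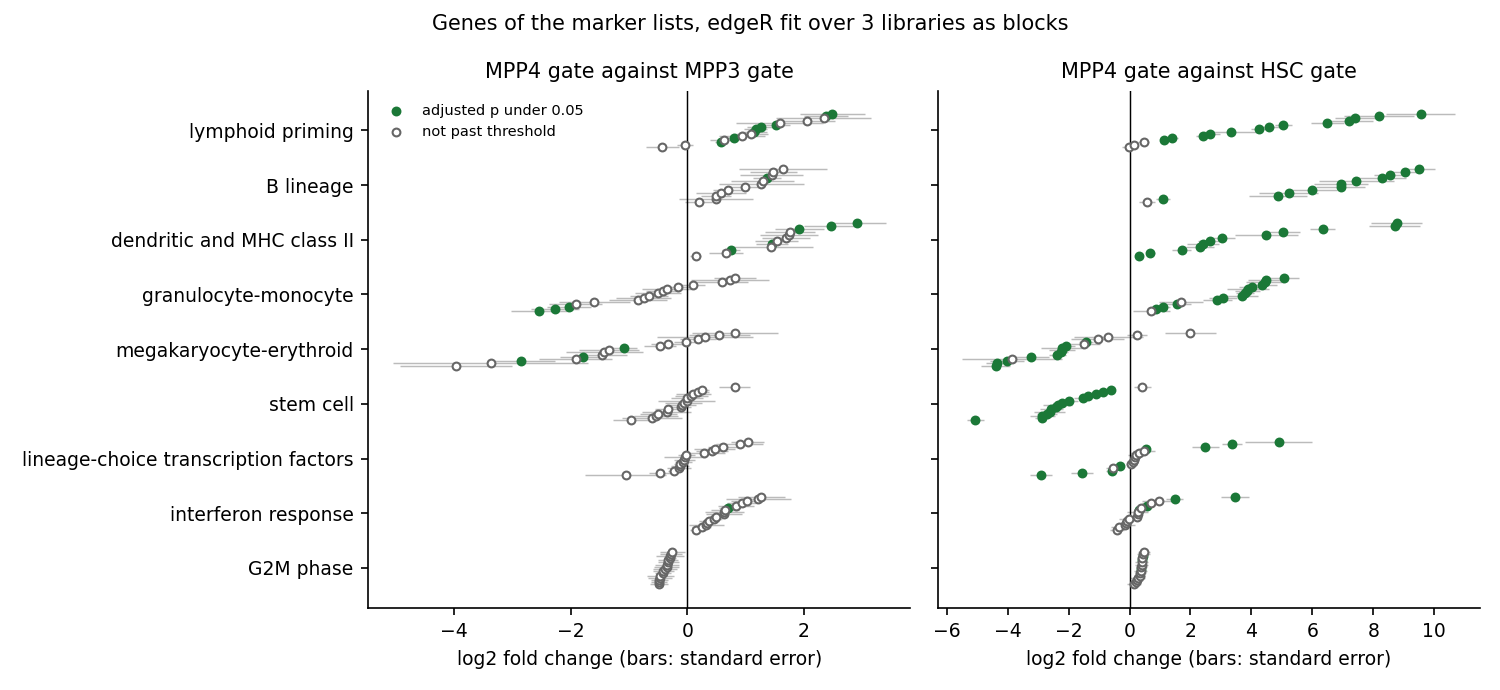
Log2 difference between the MPP4 gate and the MPP3 or HSC gate for the genes of each list (points, with SE as bars), from the edgeR fit over 3 libraries; filled points have an adjusted p under 0.05. Lymphoid genes lie above 0 in both comparisons, stem-cell genes lie near 0 against MPP3 and below 0 against HSC, and granulocyte-monocyte genes lie mostly below 0 against MPP3 and above 0 against HSC.

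Against the HSC gate the differences were larger and wider. edgeR called 2076 genes higher, 15.2% of 13615, and 1862 lower, 13.7%. Of 16 lymphoid priming genes 13 were called higher and 0 lower, with a median log2 difference of 3.80 against 0.01 over all genes. Satb1 rose by 5.05 ± 0.28 (SE; edgeR adjusted p = 2.55e-06), Dntt by 8.18 ± 1.16 (adjusted p = 0.00041), Notch1 by 2.42 ± 0.25 (adjusted p = 5.45e-05) and Ikzf1 by 1.14 ± 0.11 (adjusted p = 3.09e-05). Mef2c, Bcl11a and Tcf3 were not called. Mef2c stood at 421, 505 and 321 CPM in the gate and already at 280, 333 and 371 CPM in the HSC gate (edgeR adjusted p = 0.0636), where the Mll4 deleted members lie below their own HSC gate.

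Stem-cell genes fell against the HSC gate as a group: 15 of 16 were called lower and 0 higher, with a median log2 difference of -2.28. Slamf1 is 1 of the 15 and is fixed by the gate. Procr stood at 16.8, 11.3 and 6.93 CPM against 60.6, 44.9 and 39.1 CPM (log2 difference -1.97 ± 0.27, edgeR adjusted p = 0.000347). Mecom stood at 52.0, 58.3 and 86.6 CPM against 148, 139 and 398 CPM (-1.54 ± 0.28, adjusted p = 0.00205). Neither gene's gates overlapped. Hlf fell less, with 220, 203 and 125 CPM against 349, 308 and 409 CPM (-0.88 ± 0.30, edgeR adjusted p = 0.0485). Ly6a, which encodes the sorted antigen Sca1, was the exception (log2 difference 0.42).

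Granulocyte-monocyte genes were higher than in the HSC gate, with 14 of 16 called and a median of 3.73. Irf8 showed 73.3, 116 and 142 CPM against 3.46, 2.85 and 3.94 CPM, Mpo rose by 3.87 ± 0.41 (edgeR adjusted p = 7.40e-05) and Elane by 3.68. Of 16 megakaryocyte-erythroid genes 10 were called lower, among them Gata2 (-2.25 ± 0.22, edgeR adjusted p = 4.91e-05) and Vwf, the von Willebrand factor of platelet-biased stem cells (-4.39). The transcription factor list was divided, with 4 called higher (Id2 3.38, Nfil3 2.49, Tcf7 4.90, Runx3 0.53) and 4 lower (Mycn -2.89, Nkx2-3 -1.56, Lmo2 -0.59, Etv6 -0.32). B lineage genes were called higher in 11 of 12, mature B and plasma genes in 7 of 7, monocyte and macrophage genes in 12 of 13, mast genes in 7 of 8, stroma genes in 4 of 7, interferon genes in 4 of 16 and immediate early genes in 4 of 10 (1 lower); T and innate lymphoid genes had 6 of 11 higher and 3 lower. Without cells rich in other types the calls were 3 of 6 mature B and plasma genes, 6 of 12 monocyte and macrophage genes, 4 of 8 mast genes and 1 of 5 stroma genes higher (1 lower), and 2 of 16 interferon and 3 of 10 immediate early genes higher (3 lower in each). Of all 13397 genes in that fit, 2149 were called higher and 2027 lower. All 12 dendritic and MHC class II genes tested were called higher, but 2 of 8 without cells rich in other types. There H2-Aa and H2-Eb1, class II antigen-presentation genes, turned to -0.45 and -0.55. The cut uses the mature B, monocyte, mast, stroma and MHC class II lists themselves, so lower counts for them were partly fixed by it. Upper-quartile scaling moved the split from 52.7% to 41.3% of calls higher.

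The MPP1 gate gave a like picture, with smaller medians for the lymphoid, stem-cell and granulocyte-monocyte lists. edgeR called 1434 genes higher, 10.5% of 13615, and 1236 lower, 9.08%, and upper-quartile scaling moved the share of higher calls from 53.7% to 41.8%. Lymphoid priming genes were called higher in 14 of 16 (median 2.45), stem-cell genes lower in 14 of 16 (median -1.47), and granulocyte-monocyte genes higher in 11 of 16 (median 3.15). Satb1 rose by 2.98 ± 0.25 (edgeR adjusted p = 5.75e-05), Dntt by 5.48 ± 1.05 (adjusted p = 0.00518) and Irf8 by 4.57, while Procr fell by 1.92 and Mecom by 1.36 (edgeR adjusted p = 0.00109 and 0.00772). Procr and Mecom were thus lower than in the MPP1 and HSC gates, and their difference from MPP3 was not called.

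Cycle genes placed the members between the HSC and MPP3 gates in 2 of the 3 libraries. At 3000 UMIs, 56.5%, 64.0% and 29.9% of members had at least 3 UMIs on the 16 S phase genes (86.7%, 88.6% and 67.9% unthinned), against 69.3%, 77.4% and 45.3% in MPP3 and 43.3%, 53.0% and 57.7% in HSC. For the 16 G2M phase genes the shares were 31.8%, 41.5% and 18.2% (55.3%, 57.1% and 38.4% unthinned), against 44.0%, 53.1% and 33.7% in MPP3 and 17.8%, 27.7% and 30.0% in HSC. In the Mll4 deleted library the members had the lowest share of the 3 gates, and without marker-rich members their shares were 57.3% and 39.0%. In the edgeR fit 3 of 16 G2M genes and 1 of 16 S phase genes were called higher than in HSC, where 15.2% of all 13615 genes were. The G2M count is near that share and the S phase count below it. Without the Mll4 deleted library 15 of 16 were called higher in each list, beside 2846 of all 13516 genes. Without cells rich in other types 15 of 16 G2M and 5 of 16 S phase genes were, beside 2149 of all 13397 genes.

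The comparison of Mll3 deleted with control members asks what loss of 1 of the 2 methyltransferases changes in these cells. Both mutants were set against the same control library, and with 1 library per genotype there is no replicate check and no test: values are log2 ratios of CPM after adding 0.5 UMIs, with counting intervals. Of 3234 genes with at least 50 CPM in either library, 29 were at least 2-fold higher, 0.897%, and 14 at least 2-fold lower, 0.433%. The median over all these genes was 0.13, and scaling by TMM would move all ratios by -0.10.

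B lineage genes had the highest ratios in Mll3 deleted members. All 8 of the 12 that reached 50 CPM were at least 2-fold higher, with a median log2 ratio of 3.02 (gene limits 2.85 to 3.21). Gene limits are the medians of the single genes' lower and upper counting limits. They give no interval for the list median. All 8 reached 50 CPM in the Mll3 deleted library alone, so a higher ratio was largely fixed by that limit. Ebf1 stood at 16.4 CPM in control and 130 CPM in Mll3 deleted members, Cd79a at 25.6 and 214 CPM, and Vpreb1 at 20.2 and 207 CPM. The surrogate light chain gene Igll1 had a ratio of 3.39, Vpreb3 3.12, the adaptor Blnk 2.74 and the early lymphoid marker Ly6d 2.11. These transcripts sat in few cells: 15 of 639 members held 50% of all Vpreb1 UMIs and 14 held 50% of the Igll1 UMIs. Without marker-rich members (519 and 808 cells left) Vpreb1 had a ratio of 0.33. This set is cut on the B lineage list itself, which holds Vpreb1 and Ebf1, so lower levels of both were partly fixed by the cut. Ebf1 kept 3.03 at 12.9 against 1.55 CPM and Rag1 2.70 at 13.2 against 1.99 CPM.

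Lymphoid priming genes were slightly higher, with a median of 0.26 (gene limits 0.21 to 0.32) over the 13 that reached 50 CPM, beside 0.13 over all genes. Of these 1, Il7r, was 2-fold higher and 0 lower. Il7r is 1 of 2 that reached 50 CPM in the Mll3 deleted library alone, so its higher ratio was largely fixed by that limit. The 11 at 50 CPM in control members too had a median of 0.22. Dntt was at 944 against 565 CPM (log2 ratio 0.74), Satb1 at 186 against 149 (0.32), Notch1 at 82.0 against 59.7 (0.46) and Flt3 at 195 against 174 (0.17). Il7r stood at 62.2 against 18.3 CPM. Without marker-rich members the ratios were 0.59 for Dntt, 0.42 for Satb1, 0.57 for Notch1, 0.31 for Flt3 and 1.39 for Il7r, so Il7r differed most of these 5. The Dntt ratio was larger in the MPP3 gate (2.02) than in the MPP4 gate, as was that of Satb1 (0.74).

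Cycle and immediate early genes were also higher. The S phase list had a median ratio of 0.39, with 15 of 15 counting intervals above 0, and the G2M list 0.54, with 13 of 13, where 51.5% of all 3234 genes had an interval above 0. Immediate early genes, which respond to handling and signalling within minutes, had a median of 0.83 and 8 of 8 intervals above 0: Fosb stood at 104 against 30.7 CPM, Egr1 at 63.1 against 21.1 and Jun at 368 against 202. Fosb and Egr1 reached 50 CPM in the Mll3 deleted library alone, as did 2 S phase genes and 1 G2M gene, so their higher ratios were largely fixed by that limit. Over the genes at 50 CPM in control members too, the S phase, G2M and immediate early medians were 0.387, 0.485 and 0.732. Without marker-rich members the 3 list medians were 0.30, 0.34 and 0.86. The median was 0.11 for stem-cell genes and 0.00 for each of the granulocyte-monocyte, lineage-choice transcription factor and interferon lists. Over genes at 50 CPM in control members too, the granulocyte-monocyte and interferon medians were -0.257 and -0.361. The 7 dendritic and MHC class II genes had a median of 0.82 with none past 2-fold, 0.47 without marker-rich members, and between 0.25 and 1.15 (4 past 2-fold) as the CD135 threshold was moved up or down. Leaving out members with 3 or more UMIs of another type gave them a median of 0.08. Elane, at 70.7 against 20.6 CPM, rested on single cells: 1 cell held 456 of the 744 UMIs in Mll3 deleted members and 1 cell 208 of 298 in control members.

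Tspan32, which encodes a tetraspanin of blood cells, was the lowest of the named genes in Mll3 deleted members, at 24.7 against 138 CPM (260 against 1995 UMIs, log2 ratio -2.48). It was low in each gate, with ratios of -2.41 in MPP3, -2.06 in MPP1 and -1.75 in HSC, and 199 of 866 control members were needed to reach 50% of its UMIs. The adaptor genes Fyb (29.4 against 66.8 CPM) and Tyrobp (49.0 against 117 CPM) were lower too, with ratios of -1.17 and -1.32 once marker-rich members were left out, as were Ifitm1 (176 against 386 CPM; -0.83) and Wfdc17 (-0.86). The neutrophil granule and alarmin genes Ltf, S100a8, S100a9, Camp and Ngp had ratios from -2.19 to -1.04, but 4 control and 2 Mll3 deleted members held 50% of the S100a8 UMIs. Beside the B lineage genes, Sdc4 (1.80) and Bfsp2 (2.68) were high, and without marker-rich members they had 1.74 and 0.42.

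The Mll4 deleted members differed from control members in far more genes. Of 3323 genes with at least 50 CPM in either library, 344 were at least 2-fold higher, 10.4%, and 242 at least 2-fold lower, 7.28%. The median over all was -0.27, and TMM scaling would move all ratios by 0.14. Without marker-rich members, 217 cells were left and 215 genes were past 2-fold in either direction. Values for the remaining members stand beside those for all members where both are given.

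Lymphoid priming genes had a median log2 ratio of -0.45 (gene limits -0.57 to -0.33) over 12 genes, with 3 at least 2-fold lower and 2 higher. The 11 at 50 CPM in control members too had a median of -0.504. Satb1 stood at 43.4 against 149 CPM (log2 ratio -1.78), Dntt at 150 against 565 (-1.91), Notch1 at 23.3 against 59.7 (-1.36) and Flt3 at 89.5 against 174 (-0.96). Without marker-rich members the ratios were -1.59, -1.04, -0.90 and -0.61. Among members with at least 1 Flt3 UMI they were -1.36 for Satb1, -0.86 for Dntt and -0.74 for Notch1. Satb1 was lower by at least 1.36 in each of these 3 sets of members.

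Not every lymphoid gene was lower. Il7r stood at 55.6 against 18.3 CPM, with a ratio of 0.63 without marker-rich members. It reached 50 CPM in the Mll4 deleted library alone. Cd52, a surface glycoprotein of mature leukocytes, was at 638 against 278 CPM, but its ratio was -0.02 without them. Mef2c and Ikzf1 had ratios of -0.08 and -0.19 among the remaining members. The list's median was -0.22 there over 11 genes, and 0.06 among members with a Flt3 UMI, so the lower median of the list is not kept in every set while Satb1, Dntt and Notch1 are low in all 3.

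Granulocyte-monocyte genes were higher by a median of 3.53 (gene limits 3.30 to 3.78) over 12 genes, with 9 past 2-fold and 0 lower. Without marker-rich members the median was 3.69 over 11 genes. That cut does not use the granulocyte-monocyte list, so members rich in it can remain. At least 1% of UMIs fell on that list in 17 of 866 control, 7 of 639 Mll3 deleted and 174 of 636 Mll4 deleted members. Of the 12 genes 6 reached 50 CPM in control members too, and these had a median of 1.89. Mpo stood at 1424 against 97.2 CPM (log2 ratio 3.87) and Elane at 858 against 20.6 CPM (5.38). Without marker-rich members the ratios were 4.47 and 6.02. Ctsg was at 717 against 101 CPM and Prtn3, another neutrophil protease, at 738 against 382 CPM, with 3.34 and 1.57 among the remaining members. Csf1r, the receptor of the macrophage growth factor, stood at 133 against 4.64 CPM (3.22 among the remaining).

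These granule transcripts were unevenly spread and had a raised background in this library. In Mll4 deleted members 14 cells held 50% of the Mpo UMIs and 10 held 50% of the Elane UMIs. Cells rich in mature B and plasma transcripts in the same library had 109 CPM of Mpo and 42.2 CPM of Elane. The thinned share of members with Elane was 0.81%, 2.19% and 28.0% (4.16%, 5.63% and 64.5% unthinned), against 0%, 0% and 8.96% in those B and plasma cells, and the Mll4 deleted HSC gate had 13.1%. The Mpo ratio was of like size in each gate of this library, 3.87 in MPP4, 4.04 in MPP3, 3.89 in MPP1 and 4.73 in HSC. Among Mll4 deleted members with a Flt3 UMI Mpo was higher by 2.70.

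Stem-cell genes had a median of -0.33 over 6 genes and -0.09 without marker-rich members, beside -0.27 over all genes. Among CD48-high members it was -1.48 over 5 genes, with 3 at least 2-fold lower and 1 higher. Ly6a was the 1 gene of 6 past 2-fold on the high side over all members, at 240 against 99.4 CPM, but without marker-rich members it stood at 90.3 against 87.8 CPM. Meis1 (58.2 against 122 CPM) and Ifitm1 (133 against 386 CPM) were past 2-fold on the low side, and without marker-rich members they had -0.44 and -1.40. Mecom stood at 86.6 against 52.0 CPM over all members (0.74), and at 160 against 55.0 CPM without the marker-rich ones (1.54). The direction turned among CD48-high members, where Mecom stood at 33.7 against 42.9 CPM. The members left without marker-rich ones had a median CD48 clr of 1.77, against 2.85 in control. It was seen in 32.9% of the remaining thinned Mll4 deleted members and 17.3% of the remaining control members. Hlf was at 125 against 220 CPM over all members and at 228 against 234 CPM among the remaining.

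Lineage-choice transcription factors had a median of -0.50 over 11 genes, with 3 past 2-fold higher and 4 lower, and -0.44 over 9 genes with none past 2-fold without marker-rich members. Lmo2, a bridging factor of blood-forming transcription complexes, stood at 276 against 670 CPM (-1.28), and Myb, needed by early progenitors, at 133 against 288 CPM (-1.11). Without marker-rich members they were at -0.61 and -0.51, with Erg at -0.54 and Hhex at -0.81. Id2, which inhibits E proteins and marks innate lymphoid and dendritic fates, was higher at 110 against 28.2 CPM (1.52 among the remaining). It is 1 of 2 genes of the 11 that reached 50 CPM in the Mll4 deleted library alone, so a higher ratio was largely fixed by that limit. The 9 at 50 CPM in control members too had a median of -0.71. Zeb2 was at 351 against 88.6 CPM (0.60 among the remaining), so its ratio was smaller there.

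The S phase and G2M lists had medians of -0.78 and -0.68, with 12 of 14 and 12 of 12 intervals below 0, where 59.7% of all 3323 genes had an interval below 0, and medians of -0.32 and -0.09 without marker-rich members. MHC class II genes were higher: Cd74, the invariant chain, stood at 3994 against 509 CPM and H2-Aa at 2255 against 212 CPM. Without marker-rich members, a set cut partly on these genes, Cd74 was at 376 against 60.6 CPM and H2-Aa at 176 against 38.2 CPM. The lists of other cell types had medians of 7.90 for 4 mast genes, 4.90 for 10 monocyte and macrophage genes, 5.17 for 4 stroma genes and 1.96 for 4 mature B and plasma genes. The mast, monocyte and stroma genes all reached 50 CPM in the Mll4 deleted library alone, so their medians could only be high. Interferon genes had a median of 0.78 over 5 genes, with 2 past 2-fold, and 0.21 with 0 past 2-fold without marker-rich members. Immediate early genes had 0.01 over 6 genes, and -0.81 with 2 at least 2-fold lower without marker-rich members.

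Most of the highest single genes were markers of mast cells, macrophages or stroma. Tpsb2 had 1436 UMIs against 0, at least 9.28 higher on the log2 scale against a floor of 3 UMIs per library. The chemokine Ccl8 had 1423 UMIs against 1 (interval of the log2 ratio 8.37 to 16.2), the lysozyme gene Lyz1 2093 against 3 (8.28 to 12.1), and the collagen gene Col1a1 620 against 3 (6.52 to 10.4), where 1 cell held 561 of the 620. Cma1, Fcgr4, Mcpt4, Pla2g7, Clec4a3 and Ms4a7 had ratios from 7.30 to 8.30. A lineage-negative, Sca1+, Kit+ sort is meant to leave out cells that make these transcripts.

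Tspan32, the lowest named gene of the Mll3 comparison, was low here too: it stood at 11.4 against 138 CPM (-3.59), with -2.97 without marker-rich members and -3.85, -2.74 and -2.22 in the MPP3, MPP1 and HSC gates. Sox4, a transcription factor of early lymphoid and other progenitors, was at 144 against 568 CPM (-1.98), with -1.29 without marker-rich members and 260 against 595 CPM among members with a Flt3 UMI. Nkg7, a cytotoxic granule gene, was at 32.7 against 165 CPM, and Shisa8, Klk8, Bex6, Hist1h2ac, Acap1 and Pglyrp2 had ratios from -2.61 to -1.96. Without marker-rich members Nkg7 was at -1.60, Shisa8 at -1.82, Klk8 at -1.98, Bex6 at -1.74, Hist1h2ac at -1.76, Acap1 at -1.28 and Pglyrp2 at 24.8 against 56.7 CPM. Tpm3-rs7 had the lowest ratio (-4.55) and is uncertain, since its sequence nearly copies that of Tpm3.

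**Figure D5:**
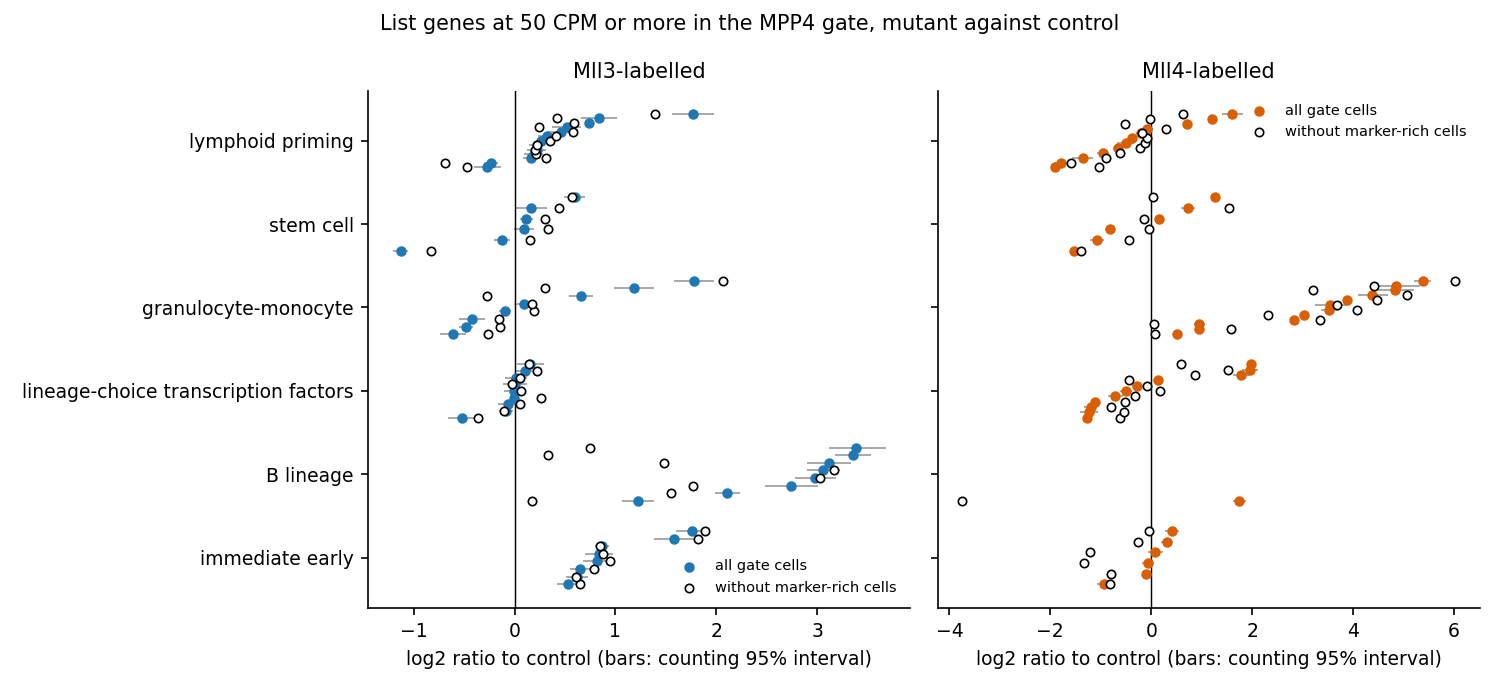
Log2 ratio of CPM to the control library (x axis) for genes of 6 lists (y axis) with at least 50 CPM. The MPP4 gates of the Mll3 deleted and Mll4 deleted libraries are shown. Filled points are all gate cells with counting 95% intervals, and open points are the gate without marker-rich cells. B lineage genes stand at a median of 3.02 in the Mll3 deleted library, and granulocyte-monocyte genes at 3.53 with lymphoid priming genes at -0.45 in the Mll4 deleted library.

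The lymphoid genes of the Mll4 deleted library differed from control by gate. Satb1 had ratios of -1.78, -0.56, -0.62 and -0.03 in MPP4, MPP3, MPP1 and HSC, Notch1 -1.36, -0.66, -0.75 and -0.52, and Flt3 -0.96, -1.35, 0.30 and -0.33. Dntt had -1.91, -0.89 and 2.96 in MPP4, MPP3 and MPP1, where the control MPP1 level was 2.72 CPM. Lmo2 was low in MPP4 and MPP3 (-1.28 and -1.33) and near the control in MPP1 and HSC (-0.42 and -0.20), and Myb was low in MPP4 (-1.11) beside -0.10 in MPP3. These differences between gates rest on 1 library per genotype and were not tested.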

How the data were processed

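Droplet RNA and antibody-tag counts of 1 control, 1 Mll3 deleted and 1 Mll4 deleted library were used as UMI counts deposited by the authors in filtered matrices. Per the submitters' processing notes they were made with Cell Ranger 6.1.1 on mm10. Gene positions came from GRCm38 with GENCODE M21, where 99.85% of gene IDs were found. Members and gene lists were chosen with earlier results of these data known. Members passed at least 1000 genes, at most 10% mitochondrial UMIs and the 2 clr thresholds; the CD48 threshold (1.662 clr) is the crossing of a 2-part mixture. Scrublet's own threshold marked 3, 6 and 200 cells, none of which was removed; leaving out the highest scores is an alternative.

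Counts were summed per library and gate. Gates were compared with edgeR 4.0.16 in R 4.3.3 (TMM, quasi-likelihood test, gate plus library, Benjamini-Hochberg over 13615 genes; SE is the log2 difference divided by the root of F). DESeq2 1.42.0 was an alternative. On data simulated for the comparison with MPP3 (13436 genes), 76% of 100 2-fold and 99% of 100 4-fold changes were recovered, and 3 unchanged genes were called. The simulation gave all genes 1 common spread and no gate difference that depends on genotype. Its rates are for that setting only. Genotypes were compared as log2 ratios of CPM with 0.5 UMIs added, with exact Poisson intervals and no test. Named genes were the 15 highest and 10 lowest called against MPP3 with at least 50 CPM and 1 direction in all libraries, the 10 highest and 10 lowest ratios per genotype, and list members; mitochondrial, ribosomal, immunoglobulin and unnamed genes were left out. Python 3.11.15 with numpy 2.4.6, scipy 1.17.1, pandas 2.3.3, scanpy 1.11.5, scikit-learn 1.9.0 and matplotlib 3.10.9 did the rest. Nothing states that a library came from more than 1 mouse, so the spread between sums may be technical as well as biological.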

Additional observations from a re-analysis of the deposited data

How the results depend on the processing

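With 1 library per genotype the ratios to control have no replicate check, and the cause of the changes below was not tested. Gates were paired by library in the fit; between genotypes no paired analysis was possible because each has 1 library. Genes called against MPP3, MPP1 and HSC numbered 360, 2670 and 3938; without the library block 0 (705 at an unadjusted p under 0.05), 326 and 1294; with only the 2 gates compared 551, 663 and 1618. Against MPP3 DESeq2 called 865, the fit without the highest doublet scores 238 and the fit without other types or B lineage cells 665. Leaving out 1 library gave 0 to 921 calls against MPP3, 416 to 4050 against MPP1 and 1325 to 5278 against HSC. Of 42 named or list genes called against MPP3, all 42 lost the call without the control or without the Mll3 deleted library, 37 of 40 kept it without the Mll4 deleted library and 31 of 37 without other types. Against HSC, leaving out other types turned H2-Eb1 to -0.55, H2-Aa to -0.45, C1qb to -0.005 and C1qa to -0.17. These genes are on lists that this cut uses.

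Gate shares in the control, Mll3 deleted and Mll4 deleted libraries were 26.8%, 28.6% and 33.9% with no centring, 5.80%, 6.08% and 4.95% with CD135 above -0.69, and 23.5%, 19.4% and 31.1% with that threshold moved as far the other way; without other types the Mll4 deleted share was 8.35%. Genes past 2-fold in Mll3 deleted members (43) numbered 19 without other types or B lineage cells, 107 at 20 CPM and 14 at 200 CPM. In Mll4 deleted members (586) they numbered 214 without other types, 215 without these or B lineage cells, 276 among members with a Flt3 UMI, 1101 at 20 CPM, 169 at 200 CPM and 920 with equal weight per cell. In Mll4 deleted members the lymphoid median turned to 0.059 (Flt3 UMI) and 0.16 (200 CPM), and the stem-cell median to 0.04 (CD135 above -0.69), 0.087 (Flt3 UMI) and 0.16 (20 CPM); it was -1.48 among CD48-high members.

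Single Mll3 ratios that changed sign were Ly6c2 (-1.09 without members with 3 UMIs of another type, -0.56 with CD135 above -0.69), Cd79b (-0.021), Vpreb3 (-0.11) and Igll1 (-0.11; all 3 without members with 3 such UMIs), and Iglc2 (1.11 without them, 3.49 with a Flt3 UMI). Single Mll4 ratios that did so were Cd52 (-0.021 without other types, and -0.017 without B lineage cells too), Apoe (-0.53 and -0.54), Ly6d (-1.84 and -3.74), Mzb1 (-1.12 without other types), Cxcl12 (-0.38 in CD48-high members) and Col1a2 (-0.91 with a Flt3 UMI). The setting that leaves out members with 3 UMIs of another type keeps 11 Mll4 deleted members and was not run for them or for the gates. It cuts on the B lineage list, which holds Cd79b, Vpreb3 and Igll1, so lower levels of these genes were partly fixed by it.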
